A study of Arabidopsis thaliana with 6 samples.

Results

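XERICO, GASA7 and GASA10 were followed across 6 Affymetrix ATH1 arrays of Arabidopsis thaliana root tips, with 1 array per sample. With earlier results of these data known, the genes were chosen by name and not by a rule on their values. The genes are XERICO, which DELLA proteins induce, and GASA peptide genes found through their locus tags. They are 3 of the 13356 genes with a probe set of their own in the annotation, and each had 1 such probe set among the 22746 that were not array controls. The probe annotation named XERICO (AT2G04240, probe set 263325_at) by its symbol. It gave GASA7 (AT2G14900, probe set 266613_at) and GASA10 (AT5G59845, probe set 247657_at) by locus tag alone, so these family names are general knowledge. The other 13 GASA names of the family were matched to no probe set through the symbols of the annotation and are not analysed here.

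Seedlings were 7 days old and grew on plates with sucrose in continuous light. GA-treated roots at 120 min (2 arrays) had Col-0 as genetic background but GA2oxOE1I as source name, and were labelled as a gene knock out with no gene named. Untreated roots at 120 min (2 arrays) and untreated roots at 0 min (2 arrays) were Col-0. A difference between GA-treated and untreated roots is therefore one of treatment and possibly of plant line, which cannot be told apart, and the labels gave neither a dose nor a form of gibberellin. The labels placed no replicates in separate cultures, and each p-value measures only the spread of these arrays, which may be technical.

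Gibberellin (GA) promotes growth by binding GID1 receptors, which then mark the DELLA repressors for breakdown through the F-box protein SLY1. XERICO encodes a small RING-H2 zinc finger protein and is among the genes that DELLA proteins induce and GA lowers in seedlings. Plants that overproduce it accumulate more abscisic acid (ABA) and tolerate drought better. GASA genes encode small secreted peptides rich in cysteine. The family holds members that GA raises and members that it lowers.

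The arrays differed in quality along the replicate numbers. The 3' to 5' signal ratio of the actin control was 14.8 on GA-treated replicate 1 and 2.52 on GA-treated replicate 2, against 4.44 and 2.22 for replicates 1 and 2 of untreated roots at 120 min and 4.94 and 2.425 for those at 0 min. Replicates differed with an SD over probe sets of 0.61 in log2 in GA-treated roots, 0.47 in untreated roots at 120 min and 0.40 at 0 min. Of 6 root hair markers 2 were measured, the expansin genes EXPA7 and EXPA18, which together read 449 to 527 in GA-treated roots, 560 to 632 in untreated roots at 120 min and 570 to 700 at 0 min. Between treated and untreated roots at 120 min EXPA7 by itself overlapped (175 and 277 against 274 and 314). EXPA18 did not (274 and 250 against 286 and 319), as for 21.7% of the tested probe sets. Of 5 green tissue markers RCA and LHCB4.1 were measured, together at 151 to 275 in GA-treated roots, 183 to 462 in untreated roots at 120 min and 228 to 276 at 0 min, and their part in the values below was not tested. The dividing cell markers AUR1, AUR2 and PRL (3 of 6) summed to 282 to 409, 298 to 367 and 326 to 379 in that order, and AGL42, 1 of 4 markers of the quiescent centre, read 76.1 to 91.3, 60.6 to 102 and 63.4 to 85.3. Of 3 lateral root markers, LBD16 and LBD29 together read 33.4 to 93.5 in GA-treated roots, 29.7 to 88.4 in untreated roots at 120 min and 6.80 to 37.8 at 0 min, with LBD29 below the filter on low values. Markers of the root cap, endodermis, stele and non-hair epidermis had no named probe set. In whole root tips, fewer cells of a type and less RNA per cell cannot be told apart.

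The comparison of GA-treated with untreated roots at 120 min joined treatment and any difference in plant line. In it none of the 3 genes differed beyond the spread between arrays. XERICO read 134 and 197 in GA-treated roots, against 219 and 130.2 in untreated roots at 120 min. Both treated arrays lay between the untreated ones, an arrangement seen for 15.4% of the 13647 tested probe sets. Its mean signal was 165 ± 44.5 in GA-treated and 174 ± 62.6 in untreated roots (SD, n = 2 for each). The replicate numbers gave opposite directions, as for 25.9% of probe sets with the same signs: replicate 1 of the treated roots had 0.61 times the signal of untreated replicate 1, and replicate 2 had 1.51 times that of untreated replicate 2.

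GASA7 read 857 and 529 in GA-treated roots, against 779 and 538 in untreated roots at 120 min. Here the treated arrays enclosed the untreated ones, as they did for 25.4% of the tested probe sets. Its mean signal was 693 ± 232 in GA-treated and 658 ± 170.2 in untreated roots (SD, n = 2 for each). GASA10 was a dim gene and read 46.1 and 28.6 in GA-treated roots, against 35.5 and 34.0 in untreated roots at 120 min. Its treated arrays also enclosed the untreated ones, and the means were 37.3 ± 12.4 and 34.7 ± 1.05 in GA-treated and untreated roots (SD, n = 2 for each). Both peptide genes were higher with treatment on replicate 1 (1.10 times for GASA7 and 1.30 times for GASA10) and lower on replicate 2 (0.98 and 0.84 times), the reverse of XERICO and the same signs as 27.5% of the tested probe sets. Of the 3 genes, 0 had treated and untreated groups that did not overlap, against 21.7% of the tested probe sets.

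**Figure D1:**
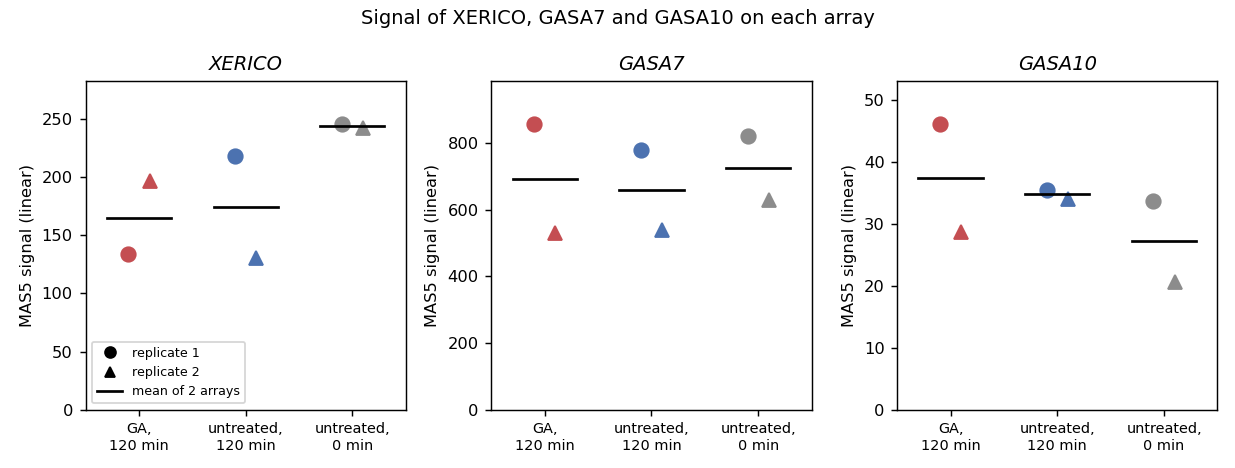
MAS5 signal on a linear axis for XERICO, GASA7 and GASA10, with GA-treated roots at 120 min on the left, untreated roots at 120 min in the middle and untreated roots at 0 min on the right. Circles are replicate 1, triangles replicate 2 and bars the mean of 2 arrays. The XERICO arrays at 0 min (246 and 242) lie above the 4 arrays at 120 min, and replicate 1 lies above replicate 2 in every group for both GASA genes.

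Differences were fitted with limma on log2(signal + 16), a scale that understates the changes of dim genes such as GASA10. The treated minus untreated difference at 120 min was -0.06 for XERICO (95% confidence interval -0.72 to 0.61), 0.06 for GASA7 (-0.65 to 0.76) and 0.05 for GASA10 (-0.68 to 0.79), with a limma adjusted p of 0.999 for each. As folds on that scale the intervals reached from 0.608 to 1.52 for XERICO, from 0.638 to 1.695 for GASA7 and from 0.624 to 1.72 for GASA10. Changes within these bounds could not be told from none in this fit. None of the 3 genes passed an adjusted p of 0.05, and neither did any other probe set (0.0% of 13647), while 152 (1.11%) had an unadjusted p under 0.05. With no differences at all a share of 0.05 would be expected there, so this count is no excess. The shares in the other comparisons of this fit were below 0.05 too.

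GA-treated replicate 1, the array with the highest actin ratio, set the sign for all 3 genes. Without it the difference was 0.20 for XERICO, -0.28 for GASA7 and -0.19 for GASA10, and without GA-treated replicate 2 it was -0.31, 0.396 and 0.29. Untreated replicates at 120 min did the same for XERICO, which stood at 0.29 without replicate 1 and -0.40 without replicate 2, and for GASA7, at 0.32 and -0.20. The part of array quality in these values was not tested.

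The comparison of untreated roots at 120 min with those at 0 min held time and handling without GA. XERICO read 219 and 130.2 at 120 min, against 246 and 242 at 0 min. Both later arrays lay below both earlier ones, as for 15.8% of the tested probe sets, and the earlier pair agreed closely: its replicate difference of 0.02 in log2 was larger than that of 4.56% of the tested probe sets. At 120 min the replicate difference of XERICO was 0.68, larger than that of 87.9%. The difference over time was -0.49 in log2 (95% confidence interval -1.15 to 0.17, limma adjusted p = 1.00), a fold of 0.712. It was -0.83 without untreated 120 min replicate 1 and -0.15 without untreated 120 min replicate 2, so the size depended on the spread at 120 min. The lateral root marker LBD16 read 26.8 and 63.5 at 120 min, against 3.63 and 35.9 at 0 min, a difference of 0.87 (limma adjusted p = 1.00), and its part in the XERICO values was not tested.

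GASA10 read 35.5 and 34.0 at 120 min, against 33.7 and 20.5 at 0 min. The groups did not overlap, which held in the higher direction for 11.3% of the tested probe sets, and the gap between the nearest arrays (34.0 and 33.7) was far smaller than the spread within the 0 min pair. Its difference was 0.25 (-0.48 to 0.99, limma adjusted p = 1.00) and came to 0.03 without untreated 0 min replicate 2 and 0.47 without untreated 0 min replicate 1. For GASA7 the untreated arrays at 120 min (779 and 538) overlapped those at 0 min (821 and 629.9). The GASA7 difference was -0.15 (-0.85 to 0.56), turning to 0.11 without untreated 120 min replicate 2 and to 0.04 without untreated 0 min replicate 1. Non-overlapping groups, in 2 of the 3 genes over time, were found for 27.0% of the tested probe sets. Of all 13647 tested, 0.0% passed the adjusted threshold over time, and 147 (1.08%) had an unadjusted p under 0.05.

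**Figure D2:**
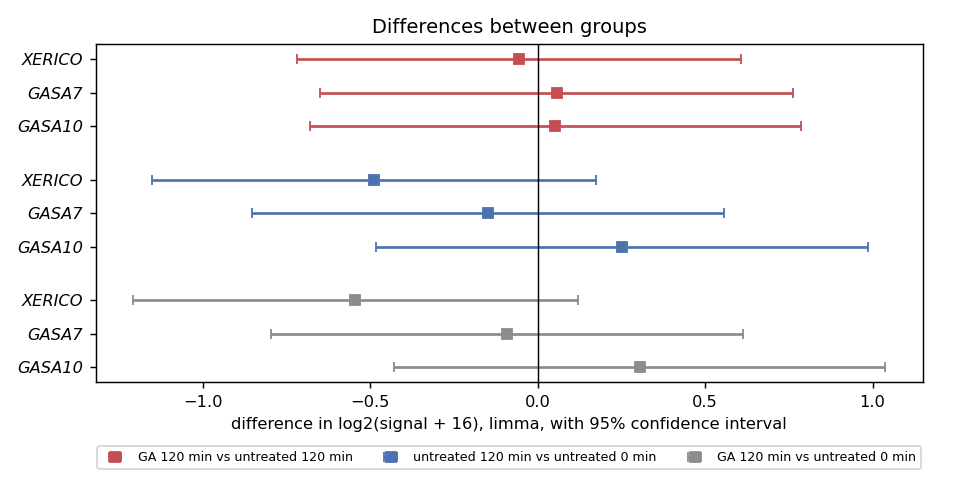
Difference in log2(signal + 16) with its 95% confidence interval from limma for XERICO, GASA7 and GASA10 in 3 comparisons: treated against untreated at 120 min in red, untreated at 120 min against 0 min in blue, and treated against the 0 min arrays in grey. All 9 intervals cross 0, and XERICO has the lowest values in the comparisons with 0 min roots (-0.49 and -0.54).

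Setting GA-treated roots against the 0 min arrays joined treatment, any difference in plant line, and time. XERICO read 134 and 197 in GA-treated roots, against 246 and 242 at 0 min, without overlap, as for 15.0% of the tested probe sets in the lower direction. Its difference of -0.54 (-1.21 to 0.12) had an unadjusted p of 0.0959 and a limma adjusted p of 1.00. Leaving out each array in turn gave -0.80 to -0.29, where the sign could not change because the groups did not overlap. Since this comparison shares its 0 min arrays with the comparison over time, the negative values in both are not separate results. All 4 arrays at 120 min lay below both at 0 min for XERICO, an arrangement found for 6.48% of the tested probe sets. It was the only one of the 3 genes whose groups did not overlap here, against 28.0% of probe sets in either direction.

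GASA10 read 46.1 and 28.6 in GA-treated roots, against 33.7 and 20.5 at 0 min, and these groups overlapped. Within replicate numbers, whose meaning the labels do not give, the ratio was 1.37 on replicate 1 and 1.39 on replicate 2. How many probe sets had ratios as close as these was not counted. Its difference was 0.30 (-0.43 to 1.04, limma adjusted p = 1.00), and leaving out each array in turn gave 0.07 to 0.54. GASA7 read 857 and 529 in GA-treated roots, against 821 and 629.9 at 0 min, with a difference of -0.09 (-0.80 to 0.61) that turned to 0.25 without GA-treated replicate 2 and to 0.095 without untreated 0 min replicate 1. By the adjusted threshold 0.0% of the 13647 probe sets were called, with 352 (2.58%) at an unadjusted p under 0.05. Without GA-treated replicate 2, which left the single treated array of highest actin ratio, 7 probe sets were called, and none of them was XERICO, GASA7 or GASA10.

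**Figure D3:**
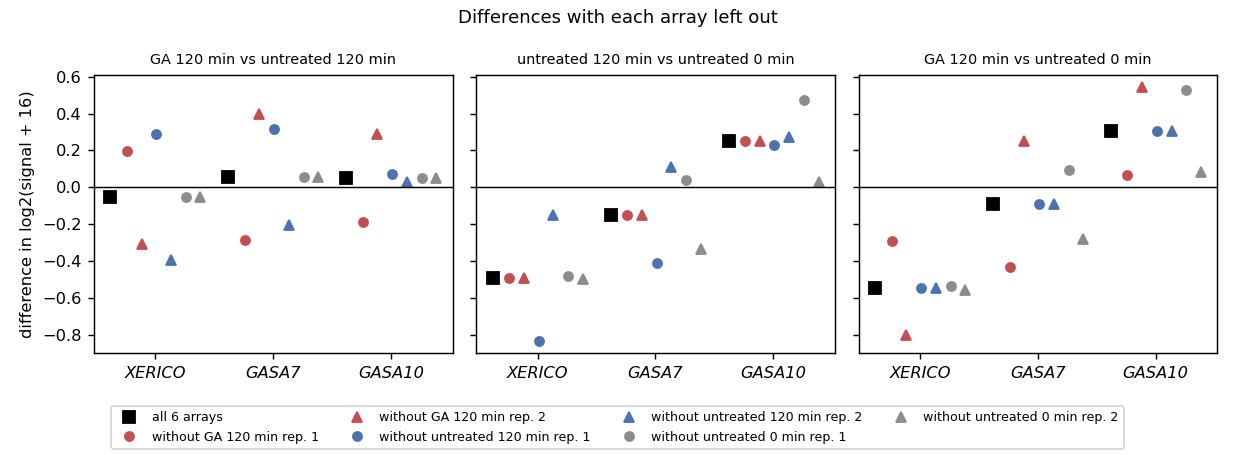
Difference in log2(signal + 16) for each gene in the 3 comparisons, with all 6 arrays (black squares) and with each array left out in turn (circles for replicate 1, triangles for replicate 2, in red for GA-treated roots, blue for untreated roots at 120 min and grey for untreated roots at 0 min). In the treated against untreated panel the values lie on both sides of 0 for each gene. In the other panels XERICO lies below 0 and GASA10 above 0. For XERICO in both of these, and for GASA10 between untreated roots at 120 and 0 min, the groups did not overlap. There no omission could change the sign.

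The order of the group means differed between the genes. XERICO averaged 165 in GA-treated roots, 174 in untreated roots at 120 min and 244 at 0 min, and the lower pair differed by less than the spread within either group. GASA10 averaged 37.3, 34.7 and 27.1 in the same order, and GASA7 693, 658 and 725, with no neighbours in either order differing beyond the limma intervals. Both peptide genes read higher on replicate 1 than on replicate 2 in all 3 groups, an order shared by 23.6% of the tested probe sets. XERICO had that order in both untreated groups and the opposite one in GA-treated roots, as did 9.14%. The 3' to 5' ratios of actin given above were likewise higher on replicate 1 in every group, and the part of that in the GASA signals was not tested.

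Few other genes of the same pathways carried a probe set named by the annotation. There were 10 lists of GASA, GA, DELLA, ABA and RING-H2 genes, and a gene counts as measured where its name matched a probe set of its own. The lists of DELLA proteins, of enzymes of GA synthesis and breakdown, and of ABA receptors and signalling proteins had 0 measured members. Probe sets that the annotation did not name were not searched, so genes of these lists may still be on the array. Across the lists 17 genes were measured besides XERICO and the GASA genes, and 10 of them passed the filter on low signals. At 120 min 4 of these 10 had higher and 6 lower values in GA-treated than in untreated roots, with a median of -0.09 against 0.0092 over all tested probe sets, and 0 passed the limma threshold (0.0% of all tested). That split turned to 8 higher and 2 lower without GA-treated replicate 1, with a median of 0.34, and 3 were higher and 7 lower under median centring or quantile normalization.

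XERICO shared its list of DELLA-induced genes with the GA receptors GID1A and GID1B. GID1B read 4.87 and 214 in GA-treated roots, against 101 and 73.05 in untreated roots at 120 min, so its treated arrays enclosed the untreated ones where those of XERICO lay within them. All 3 genes had lower mean log2 values in GA-treated roots, as did 6640 of the 13647 tested probe sets, with GID1A at -0.26 and GID1B at -0.56. On the signal scale the mean of GID1B was higher in GA-treated roots (109.5 against 86.8), and its negative log2 value rested on the reading of 4.87. All 3 log2 differences turned positive without GA-treated replicate 1 (0.29 for GID1A and 1.18 for GID1B). Like XERICO, both receptors read lower on replicate 1 than on replicate 2 of the treated roots, at 19.7 and 60.9 for GID1A. SLY1, of the list of GA perception, read 79.2 and 162 in GA-treated roots, against 136 and 107 in untreated roots at 120 min. Its difference was -0.07 (-0.78 to 0.64, limma adjusted p = 0.999). It turned to 0.38 without GA-treated replicate 1 and stood at -0.52 without GA-treated replicate 2.

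Among the RING-H2 genes, BRH1, a relative of XERICO known as responsive to brassinosteroid, read 154 and 173 in GA-treated roots, against 115 and 117 in untreated roots at 120 min and 122 and 128 at 0 min. Its treated arrays lay above all 4 untreated ones, as did those of 4.66% of the tested probe sets, and 11.4% had treated arrays above both untreated arrays at 120 min. The difference from untreated roots at 120 min was 0.44 (-0.04 to 0.93, unadjusted p = 0.0694, limma adjusted p = 0.999) and did not pass. Leaving out each array in turn gave 0.37 to 0.52. RHF1A, which acts in gamete formation, differed by 0.0055 (-0.61 to 0.62) and read 66.0 and 104 in GA-treated roots, against 77.4 and 88.6 in untreated roots at 120 min. ATL8, of the ATL group, differed by 0.28 (-0.58 to 1.14). With each array of these groups left out, RHF1A ranged from -0.27 to 0.28, and ATL8 turned to -0.07 without GA-treated replicate 2 and to -0.08 without untreated 120 min replicate 1, and stood at 0.63 without GA-treated replicate 1 and at 0.64 without untreated 120 min replicate 2. ATL63 lay below the filter, at 1.78 and 1.11 in GA-treated roots, against 3.32 and 7.08 in untreated roots at 120 min.

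Transcription regulators that DELLA proteins bind were represented by JKD, SPT, EIN3 and ALC. JKD, a zinc finger protein of root ground tissue patterning, read 71.1 and 66.7 in GA-treated roots, against 28.9 and 54.8 in untreated roots at 120 min and 32.7 and 39.1 at 0 min. Both treated arrays thus lay above all 4 untreated ones (4.66% of the tested probe sets), and 13.0% of the tested probe sets had treated arrays above both at 0 min. Its difference was 0.59 from untreated roots at 120 min (-0.08 to 1.26, unadjusted p = 0.0791) and 0.71 from those at 0 min (0.04 to 1.39, unadjusted p = 0.0405), and neither passed the limma adjustment over all probe sets. The first value came to 0.26 without untreated 120 min replicate 1 and to 0.92 without untreated 120 min replicate 2. EIN3, a transcription factor of ethylene signalling, differed by -0.22 (-0.89 to 0.46), and SPT, a bHLH protein, by -0.10 (-0.82 to 0.62). EIN3 turned to 0.11 without GA-treated replicate 1 and to 0.03 without untreated 120 min replicate 2, and reached -0.55 and -0.47 without the other replicate of each group. SPT turned to 0.05 without GA-treated replicate 2 and to 0.07 without untreated 120 min replicate 1. ALC, a bHLH protein of fruit opening, lay below the filter and read 7.67 and 7.89 in GA-treated roots, against 17.4 and 24.9 in untreated roots at 120 min.

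ABA genes were given for the link of XERICO to this hormone. COR47, a dehydrin induced by ABA and cold, read 1964 and 2243 in GA-treated roots, against 2218 and 2988 in untreated roots at 120 min, a difference of -0.29 (-0.89 to 0.31) that ranged from -0.51 to -0.08 without single arrays. At 0 min it read 2053 and 2377. COR15A, a cold- and ABA-induced protein of the chloroplast, and UGT71B6, which attaches glucose to ABA, lay below the filter, as did BGLU33, which releases ABA from its glucose ester. COR15A read 4.48 and 3.09 in GA-treated roots, against 12.1 and 1.925 in untreated roots at 120 min. UGT71B6 read 3.595 and 2.59 in GA-treated roots, against 0.621 and 0.544 in untreated roots at 120 min, and BGLU33 stayed below 1 on every array. Signals this low are noisy in MAS5, and no order is read from them.

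**Figure D4:**
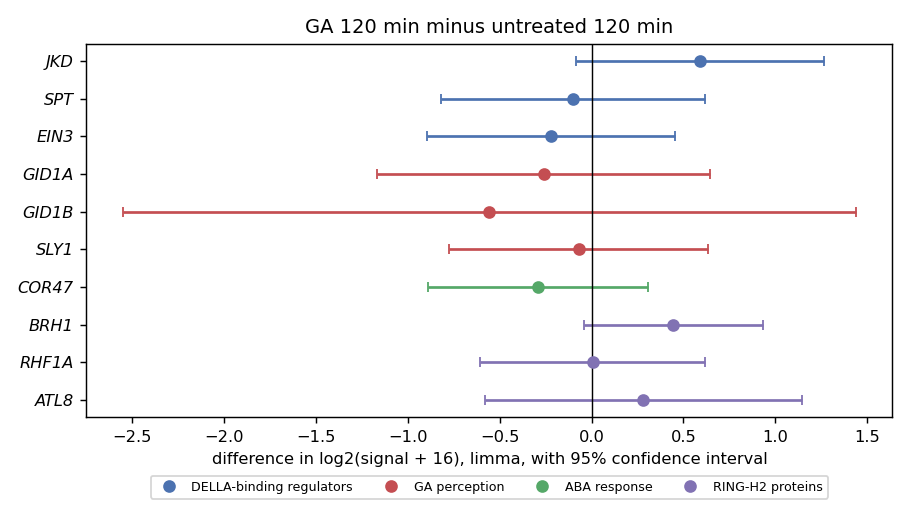
Treated minus untreated difference in log2(signal + 16) at 120 min, with 95% confidence intervals from limma, for the 10 tested genes of the GA, DELLA, ABA and RING-H2 lists, coloured by list. All 10 intervals cross 0. JKD (0.59) and BRH1 (0.44) have the highest values, and GID1B has the widest interval.

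Likeness of pattern was measured as the root mean square difference over the 6 arrays between log2(signal + 16) values centred on their own mean. It was taken among 7452 other tested probe sets with 1 named gene, so that near matches arise by number alone, and the points share arrays and their quality. Nearest to XERICO were AT1G09750 (0.086), scpl42, a serine carboxypeptidase-like gene (0.09), and AT3G47800 (0.093), against a median of 0.42 over all candidates. AT1G09750 read 140 and 220 in GA-treated roots, 272 and 161 in untreated roots at 120 min and 298 and 272 at 0 min, the same high pair at 0 min and crossed replicates at 120 min. Nearest to GASA7 were AT1G28760 (0.037), AT1G73820 (0.042) and AT5G26731 (0.048), and nearest to GASA10 were AT1G02330 (0.057), AT5G57610 (0.062) and AT5G20160 (0.062), against medians of 0.33 and 0.31. GASA7 and GASA10 lay 0.24 apart, with 25.3% of candidates closer to GASA7 than GASA10 was. XERICO lay 0.41 from GASA7 and 0.52 from GASA10, where 46.3% and 77.7% of candidates were closer to XERICO. None of the 9 nearest genes was in the pathway lists. Only 10 genes of those lists were tested besides XERICO and the GASA genes, so nothing is read from this.

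**Figure D5:**
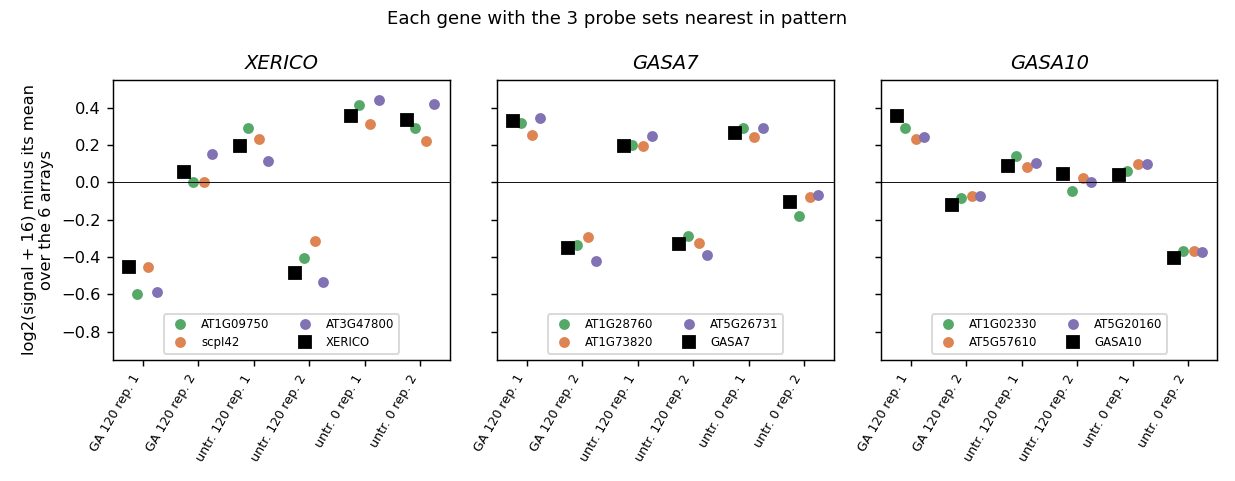
Values of log2(signal + 16), each minus its mean over the 6 arrays, for XERICO, GASA7 and GASA10 (black squares) and the 3 probe sets nearest to each in pattern (coloured circles), with GA-treated roots on the left, untreated roots at 120 min in the middle and untreated roots at 0 min on the right. The XERICO set is high on both 0 min arrays and low on GA-treated replicate 1 and untreated 120 min replicate 2, and the GASA7 set alternates between replicate 1 and replicate 2.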

How the data were processed

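The authors deposited MAS5 intensity on a linear scale, 1 value per probe set and array. Per the submitters' processing notes MAS5 and GCOS were used, without versions or roles, and the trimmed mean (2% off each end) was 100.0 on every array. Labelling followed a one-cycle protocol, per the labels. Of 22810 probe sets, 64 were controls. Groups and replicate numbers came from the sample titles. Probe sets were named through a platform annotation of 2016 (13513 probe sets with 1 gene, 503 with several), updated through the RefSeq table of TAIR10.1, where 13436 matched. No coordinates or sequences are printed, and detection calls were not used.

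Probe sets with a mean signal above the 40th percentile (25.8) were taken to log2(signal + 16) and modelled in limma 3.58.1 (R 4.3.3; lmFit, eBayes with trend), all 3 groups together, which left 3 residual degrees of freedom and a prior of 5.80. Two-sided p-values were adjusted by Benjamini-Hochberg over 13647 probe sets, at a threshold of 0.05. Precision is limited by the number of arrays, and by the spread that same-numbered arrays shared, which this fit left in its error. The genes and lists were chosen with earlier results of these data known. Named genes were XERICO, GASA7 and GASA10, up to 4 tested members of each list by signal (lists of up to 4 measured members whole, those below the filter as signals), and the 3 single-gene probe sets nearest in pattern to each gene. Alternatives changed the pseudocount, filter, scaling, trend, replicate block, groups in the fit and each array in turn.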

Additional observations from a re-analysis of the deposited data

How the results depend on the processing

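With 16 alternatives, of which median centring over all probe sets was chosen after seeing the data, 129 of 141 recomputed differences of XERICO, GASA7 and GASA10 kept their direction, none passed the threshold, and 12 changed direction. Changes of the filter, trend, replicate block or groups in the fit could not alter a difference, by construction. Nor could leaving out an array of the group not compared. Where the compared groups did not overlap, leaving out an array could change the size but not the direction. The 129 therefore include many that were fixed in advance and do not measure stability. In treated against untreated roots at 120 min, GASA10 turned to -0.0089 under quantile normalization and to -0.0068 under median centring over all probe sets, and GASA7 to -0.0033 under median centring over all probe sets, a scaling that lowered the median of the tested probe sets to -0.05. With each array left out, that comparison ranged from -0.40 to 0.29 for XERICO, from -0.28 to 0.396 for GASA7 and from -0.19 to 0.29 for GASA10. GASA7 ranged from -0.41 to 0.11 between 120 and 0 min and from -0.43 to 0.25 between GA-treated roots and 0 min. XERICO ranged from -0.83 to -0.15 and from -0.80 to -0.29 in those comparisons, and GASA10 from 0.03 to 0.47 and from 0.07 to 0.54. The lowest limma adjusted p of the 3 genes under any alternative was 0.353, for XERICO against 0 min. The count of called probe sets ranged from 0 to 7 between GA-treated roots and 0 min, with 7 only without GA-treated replicate 2, and was 0 under each alternative in the other comparisons. GASA10 fell below the filter at the 60th percentile and was not tested there.

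In the fit with a replicate block the differences were unchanged by construction (-0.06, 0.06 and 0.05 for XERICO, GASA7 and GASA10 in GA-treated against untreated roots at 120 min) and 0 probe sets were called in each comparison, with 437, 403 and 805 at an unadjusted p under 0.05, against 152, 147 and 352 without it. Deviations of same-numbered arrays correlated at 0.34, 0.36 and 0.31 between the groups across probe sets, so arrays of the same number deviated together, and the labels do not say what the number stands for. In treated against untreated roots at 120 min the blocked 95% confidence interval was -0.67 to 0.56 for XERICO, -0.34 to 0.45 for GASA7 and -0.63 to 0.73 for GASA10, narrower than without the block most of all for GASA7. Detection calls were not used, so the distance of GASA10, at 20.5 to 46.1, from the background is not known.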
